A study of Mus musculus with 12 samples.

Results

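Fmr1 and its paralogues Fxr1 and Fxr2 are 3 of the 48526 genes counted in RNA from mouse cardiac Purkinje cells (PCs) and ventricular myocytes (VMs) with and without Ncam-1. Fmr1 was chosen by its counts in these libraries, which were low in PCs of Ncam-1 knockout (KO) mice and not in their VMs, so its levels are given here as a description, with no test. Fxr1 and Fxr2 were taken as the other genes of the family, whatever their counts, and were tested.

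The libraries came from adult mice that were wild type (WT) or KO for Ncam-1, which encodes the neural cell adhesion molecule. All of these mice, the WT included, carried the Cntn2-EGFP reporter, a BAC transgene in which the promoter of Cntn2, a gene of the conduction system, drives EGFP. The reporter line was kept on CD1 and the Ncam-1 null line on C57BL/6, and the strain mixture of each group was not stated. Ventricles were dissociated, the cells were loaded with 50 nM of the mitochondrial dye TMRM, and sorting gave PCs (dye and EGFP positive) and VMs (dye positive, EGFP negative). Each of the 4 groups, WT PC, KO PC, WT VM and KO VM, had 3 libraries, and the labels do not say whether each library came from its own heart, so the p-values measure the spread between these libraries, which may be partly technical.

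FMRP, the product of Fmr1, and the products of Fxr1 and Fxr2 are RNA-binding proteins that associate with polyribosomes, mRNA granules and microRNA-bearing Argonaute complexes, and FMRP is best known as a repressor of translation in neurons, where its loss causes fragile X syndrome. FXR1 is the family member most closely tied to striated muscle. FMRP and FXR2 are studied mainly in the nervous system.

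The 3 genes lie on separate chromosomes of the mouse genome (GRCm38, GENCODE release M21), each on the plus strand. Fmr1 (ENSMUSG00000000838) spans chrX:68678541-68717963, with 17 exons after its transcripts are merged. Fxr1 (ENSMUSG00000027680) spans chr3:34019943-34070322 in 15 merged exons, and Fxr2 (ENSMUSG00000018765) spans chr11:69632990-69653297 in 18. No stretch of 50 bases, the length of a read, is shared between transcripts of the 3 members (0 shared 50-base words), so that reads can be told apart within the family. Of the 50-base words in Fmr1 transcripts, 2.23% also occur in other genes (Dffa and the overlapping Gm27838). For Fxr1 the share is 1.79% and lies in Dnajc19 and Gm17795, and for Fxr2 it is 0. The strand setting of the counting was not stated, and Fxr1 shares 178 exon bases with Dnajc19 on the opposite strand, so reads from those bases cannot be assigned to one or the other.

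The 120 bases directly before the annotated start of Fmr1 (RefSeq, GRCm38.p6, chrX:68678421-68678540, plus strand) are shown because this is the gene whose counts set KO PCs apart. Capitals mark matches to the core of the NRF1 motif (GCGCATG), an E-box (CACGTG) and the GC box (GGGCGG), searched on either strand, and the NRF1 core matches on both strands at 1 place, where the matches overlap.
Fmr1 upstream: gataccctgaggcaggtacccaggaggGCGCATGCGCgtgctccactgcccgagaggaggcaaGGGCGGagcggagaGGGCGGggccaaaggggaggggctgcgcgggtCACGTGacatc
Over the 250 bases before the start, the NRF1 core was found in 3.24% of 32851 RefSeq promoters, the E-box in 6.02% and the GC box in 32.7%. The same window of Fxr1 held 7 matches to the GC box and that of Fxr2 held 2, and neither held the NRF1 core or the E-box (0 matches). Part of the Fxr1 window lies inside the GENCODE model of the gene and is annotated there as transcribed, since that model begins before the RefSeq start. These matches are letters in a window and were not tied to binding in these cells. Gm27838, an annotated small RNA gene with 0 counts in every library, begins inside the printed stretch and runs into Fmr1.

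Libraries held 13883427 to 42505705 counts on genes, of which 78.99% to 91.25% were on mitochondrial genes, leaving 1532393 to 6761356 counts for all others. WT PC replicate 2 stood apart, with 63.94% of its read pairs not aligned where all other libraries had 18.76% to 24.66%. Some of the results that rest on it are also given without it. Ncam1 had 83, 34 and 116 counts in the WT PC libraries and 0, 1 and 1 in the KO PC libraries. The WT VM libraries had 6, 0 and 9 counts of it and the KO VM libraries 0 each, so the genotype label could be checked in PCs but hardly in VMs. Fmr1 is X-linked, and every library had 26 to 233 counts of the Y-linked Kdm5d and 0 to 17 of Xist, genes named after their values were seen. All 10 cardiomyocyte markers were detected, summing to 446404 to 764879 normalized counts. The summed level of 10 Purkinje cell markers was 1151 to 3690 normalized counts in WT PCs, 400.8 to 1744 in KO PCs, 84.71 to 115.3 in WT VMs and 131 to 162.1 in KO VMs. A normalized count here is a count scaled by the TMM method to a common library size.

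Fxr1 was by far the most abundant family member in every library, and Fmr1 the least when levels were divided by merged exon length. Per kilobase of merged exon, Fxr1 stood at 6.92 to 9.90 TMM-scaled CPM (counts scaled to a common library total) over the 12 libraries, Fxr2 at 0.576 to 1.78 and Fmr1 at 0.104 to 0.376. As a share of the summed family level per length within a library, Fxr1 made up 80.17% to 90.72%, Fxr2 6.01% to 18.6% and Fmr1 1.14% to 4.32%. By merged exon length, the order Fxr1, Fxr2, Fmr1 held in each library with no overlap between members. By coding length, WT PC replicate 2 had the reverse order of the lower members, with Fmr1 at 1.48 TMM-scaled CPM per kilobase and Fxr2 at 1.07. Among protein-coding genes detected in the same library, Fxr1 lay at the 93.91st to 96.54th percentile of level per length, Fxr2 at the 52.31st to 82.61st and Fmr1 at the 22.3rd to 52.8th. The coefficient of variation over all libraries was 42.42% for Fmr1, 26.27% for Fxr2 and 11.45% for Fxr1. The Fmr1 value includes the group difference on which the gene was chosen. Within groups the coefficient was 6.81% to 28.8% for Fmr1, 7.39% to 36.7% for Fxr2 and 2.24% to 13.6% for Fxr1. Fmr1 rests on few reads, 13 to 142 counts per library against 557 to 3088 for Fxr1.

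**Figure D1:**
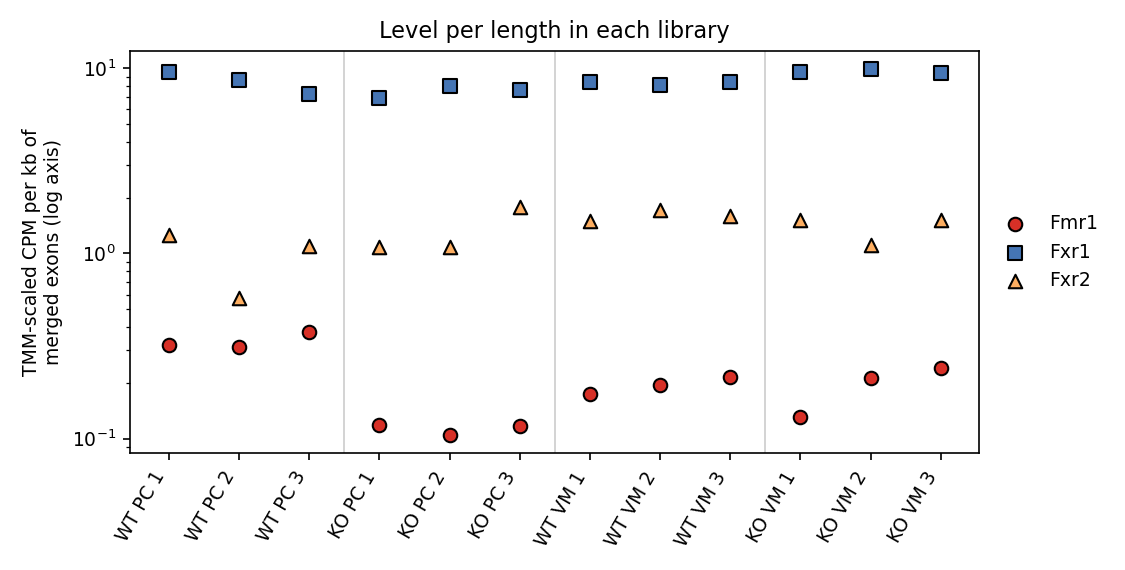
TMM-scaled CPM per kilobase of merged exons (log axis) for Fmr1, Fxr1 and Fxr2 in each of the 12 libraries, ordered by group. Fxr1 lay between 6.92 and 9.90 in all libraries, above Fxr2 and Fmr1, and Fmr1 was lowest throughout, with its 3 smallest values in the KO PC libraries.

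Fmr1, the gene of FMRP, was highest in WT PCs and lowest in KO PCs. In replicates 1, 2 and 3 of WT PC it had 61.9, 60.5 and 72.8 normalized counts, from 142, 31 and 126 counts. In KO PC it had 22.9, 20.2 and 22.7 normalized counts, from 13, 16 and 34 counts. These KO PC values lay below every other library, and the WT PC values lay above every other library. Of all genes tested, 4.7% had KO PC wholly below WT PC and 6.92% had KO PC wholly below KO VM. WT PC lay wholly above WT VM for 7.29%. The share of genes with all these gaps at once was not counted. In VMs, the WT libraries had 33.8, 37.7 and 41.4 normalized counts and the KO libraries 25.5, 41.1 and 46.3, with overlap between genotypes. The group means were 65.1 ± 6.75 in WT PC, 37.6 ± 3.83 in WT VM, 37.6 ± 10.8 in KO VM and 21.9 ± 1.49 in KO PC (SD, n = 3 each). In that order WT VM and KO VM did not differ beyond their spread, and the gap between KO VM and KO PC is narrow at its edge, where KO VM replicate 1 had 18 counts (exact 95% Poisson interval 10.7 to 28.5, counting error only) and KO PC replicate 1 had 13 (6.92 to 22.2).

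Expressed as a fold change, Fmr1 was 2.96-fold lower in KO PC than in WT PC, a log2 fold change of -1.57 with a standard error of 0.44 (edgeR quasi-likelihood fit). Leaving out each library in turn moved this value between -1.63 and -1.47, and it was -1.62 without WT PC replicate 2. In VMs the genotype difference was -0.0014 ± 0.31 (SE) on the log2 scale, and -0.17 to 0.20 with each library left out in turn. The genotype effect in PCs minus that in VMs was -1.57 ± 0.49 (SE), a value that the choice of this gene fixed. WT PC exceeded WT VM by 0.76 ± 0.35 and KO PC fell below KO VM by a log2 fold change of -0.78 ± 0.40, so that over both genotypes PCs and VMs were close (0.01 ± 0.24). As background to the choice, 317 of 11754 genes tested (2.7%) were lower in KO PC than WT PC at an unadjusted p under 0.05, and 4.7% had KO PC values wholly below the WT PC values. No gene passed adjustment there by edgeR (0 of 11754, with 378 at an unadjusted p under 0.05), while 7 did by DESeq2 and 1 by limma.

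**Figure D2:**
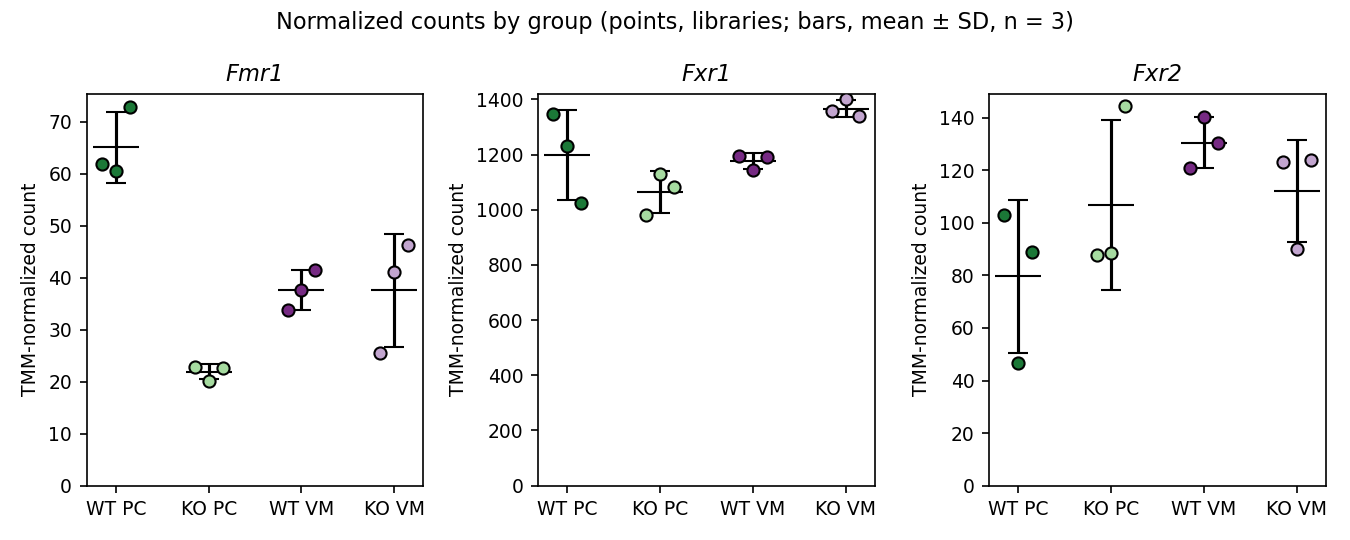
TMM-normalized counts of Fmr1, Fxr1 and Fxr2 in each library (points) with the group mean and SD (bars, n = 3), on axes that start at 0. The KO PC points of Fmr1, at 20.2 to 22.9, lay below all its other points, while the points of Fxr1 and Fxr2 overlapped between KO PC and WT PC.

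Fmr1 and the summed level of Purkinje cell markers were both lower on average in KO PC than in WT PC. KO PC replicate 3 had a summed marker level of 1744 normalized counts and an Fmr1 value of 22.7, and WT PC replicate 1 had 1151 and 61.9. KO PC replicates 1 and 2, with marker levels of 400.8 and 402.8, had Fmr1 values of 22.9 and 20.2. Cntn2, the list gene whose promoter drives the reporter, had at most 49.24 normalized counts in these KO PC replicates. It had 452.4 in KO PC replicate 3 and 236.7 to 532.8 in WT PC. VMs, with marker levels of at most 162.1, had Fmr1 values of 25.5 to 46.3. Pearson's r between Fmr1 and the marker level over the 12 libraries, which share their groups and depths, was 0.35. The list also holds Pcp4 and Drd2, and the paper reports these genes and Cntn2 as lower in PCs of KO mice. The summed level is therefore not a measure of the share of Purkinje cells alone. The part of the marker level in the Fmr1 difference was not tested. In bulk RNA from sorted cells, fewer cells of a type and less RNA per cell cannot be told apart.

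**Figure D3:**
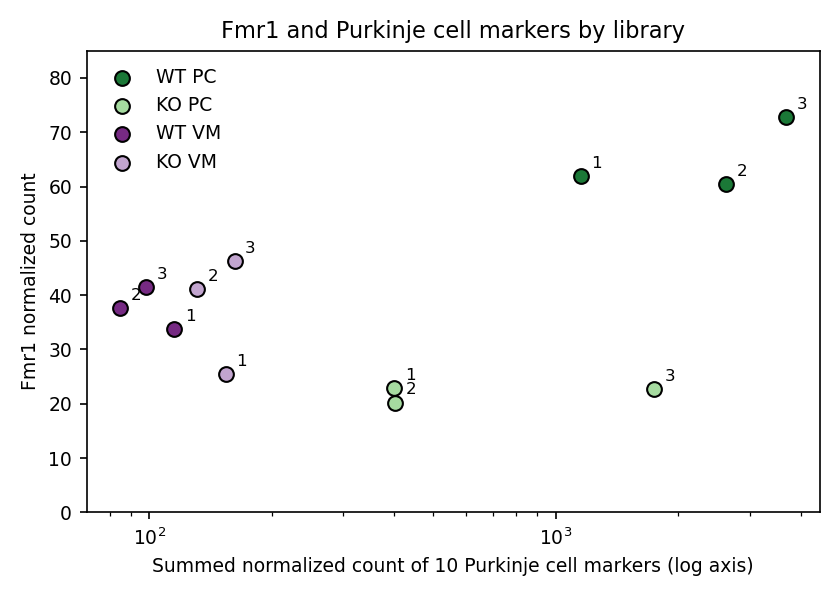
Fmr1 normalized counts against the summed normalized counts of 10 Purkinje cell markers (log axis) in each library, with replicate numbers beside the points. KO PC replicate 3 sits at a marker level of 1744 and an Fmr1 value of 22.7, and WT PC replicate 1 at 1151 and 61.9.

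Markers of other cell types were present in the sorted cells, and most lists overlapped between WT and KO PCs. Endothelial markers (8 genes) summed to 712 to 1007 normalized counts in WT PC and 600.8 to 1958 in KO PC, and fibroblast markers (7 genes) to 705.6 to 1672 and 656.9 to 966.8. Leukocyte markers (8 genes) summed to 269.9 to 608.6 and 237.3 to 274, with Cd3e and Fcgr1 at 3 counts or fewer, before scaling, in every library. Of the neuron and Schwann cell markers, 6 of 10 (among them Th, Snap25, Tubb3, Sox10 and Rbfox3) had no counts in any library, and the list summed to 14.4 to 60.5 in WT PC and 10.1 to 21.1 in KO PC. The smooth muscle and pericyte list (7 genes) was the exception, at 4005 to 5120 in WT PC and 5185 to 6681 in KO PC with no overlap. Among single genes, 4.82% had KO PC wholly above WT PC. The list summed to 4279 to 4799 in WT VM and 4519 to 4949 in KO VM, so it was not lower there than in WT PC. Whether it marks other cells here was not tested. Its Pearson's r with Fmr1 over the 12 libraries was -0.58, and the other lists ran from -0.06 to 0.43. Its part in the Fmr1 difference was not tested.

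Fxr1, the paralogue most tied to muscle, was close to level between genotypes in PCs. Its normalized counts were 1346, 1229 and 1023 in WT PC and 979.1, 1130 and 1083 in KO PC, and the groups overlapped. The log2 fold change was -0.17 ± 0.21 (SE, 95% interval -0.65 to 0.31), with an adjusted p = 0.993 by edgeR's quasi-likelihood test and p = 0.3 in a two-sided exact permutation test of 3 against 3 libraries, a design that cannot give less than 0.1. In VMs it had 1196, 1145 and 1191 normalized counts in WT and 1356, 1400 and 1341 in KO, so that each KO library exceeded each WT library. The difference there, 0.21 ± 0.12 (SE, 95% interval -0.06 to 0.47), did not pass the edgeR test at an unadjusted 0.05 either (adjusted p = 0.959), and the exact permutation p was 0.1. KO VM values lay wholly above WT VM values for 4.6% of all genes tested.

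The comparison of cell types gave the one Fxr1 value that passed an unadjusted threshold. In KO mice, all PC libraries had less Fxr1 than all VM libraries, 1.28-fold lower, with a log2 fold change of -0.36 ± 0.13 (SE, adjusted p = 0.306 by edgeR) and an exact permutation p of 0.1. At that unadjusted threshold 9.7% of all genes were called and 2.6% were lower in KO PC, 6.92% had KO PC wholly below KO VM, and 0.872% passed adjustment. Without KO PC replicate 1 the unadjusted p was just over the threshold (log2 fold change -0.30), and the other 5 fits with a library left out stayed under it. In WT mice the difference between PC and VM was -0.01 ± 0.19 (SE) on the log2 scale, and the genotype effect in PCs minus that in VMs was -0.39 ± 0.22 (95% interval -0.85 to 0.08, adjusted p = 0.999 by edgeR, with 2.9% of all genes under an unadjusted 0.05 and Fxr1 not among them), so an effect of genotype on the contrast of cell types was not shown. Over both genotypes PCs had a log2 fold change of -0.17 ± 0.11 against VMs (adjusted p = 0.627 by edgeR, p = 0.085 by an exact permutation within genotypes). Endothelial and fibroblast markers differed between these groups, summing to 600.8 to 1958 and 656.9 to 966.8 in KO PC against 107.5 to 400.6 and 65.1 to 317.2 in KO VM. Their part in the Fxr1 difference was not tested.

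No test of Fxr2 between genotypes passed its threshold. It had 102.9, 46.8 and 89.0 normalized counts in WT PC and 87.9, 88.4 and 144.3 in KO PC, with the lowest value in WT PC replicate 2, the library that aligned poorly, from 24 counts. The log2 fold change of KO PC over WT PC was 0.41 ± 0.41 (SE, 95% interval -0.50 to 1.33, adjusted p = 0.993 by edgeR, exact permutation p = 0.6). It was 0.17 without WT PC replicate 2 and 0.10 without KO PC replicate 3. In VMs, Fxr2 had 121.0, 140.2 and 130.2 normalized counts in WT and 123.0, 89.9 and 123.9 in KO, a log2 fold change of -0.22 ± 0.20 (SE, 95% interval -0.64 to 0.19, adjusted p = 0.973 by edgeR, exact permutation p = 0.3). The genotype effects in PC and VM differed by 0.62 ± 0.43 (95% interval -0.29 to 1.53, adjusted p = 0.999 by edgeR).

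In WT hearts each PC library had less Fxr2 than each VM library. The log2 fold change was -0.71 ± 0.35 (SE, 95% interval -1.49 to 0.06), with an adjusted p = 0.798 by edgeR and an exact permutation p of 0.1. At an unadjusted 0.05, where 6.36% of all genes were called, Fxr2 was not. WT PC values lay wholly below WT VM values for 6.56% of genes. The value was -0.46 without WT PC replicate 2, and it crossed the unadjusted threshold without WT PC replicate 1 (-0.92). In KO hearts PCs and VMs overlapped, at -0.05 ± 0.25 (SE). Over both genotypes the value was -0.37 ± 0.21 (adjusted p = 0.564 by edgeR, p = 0.07 by an exact permutation within genotypes, which can reach 0.005).

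**Figure D4:**
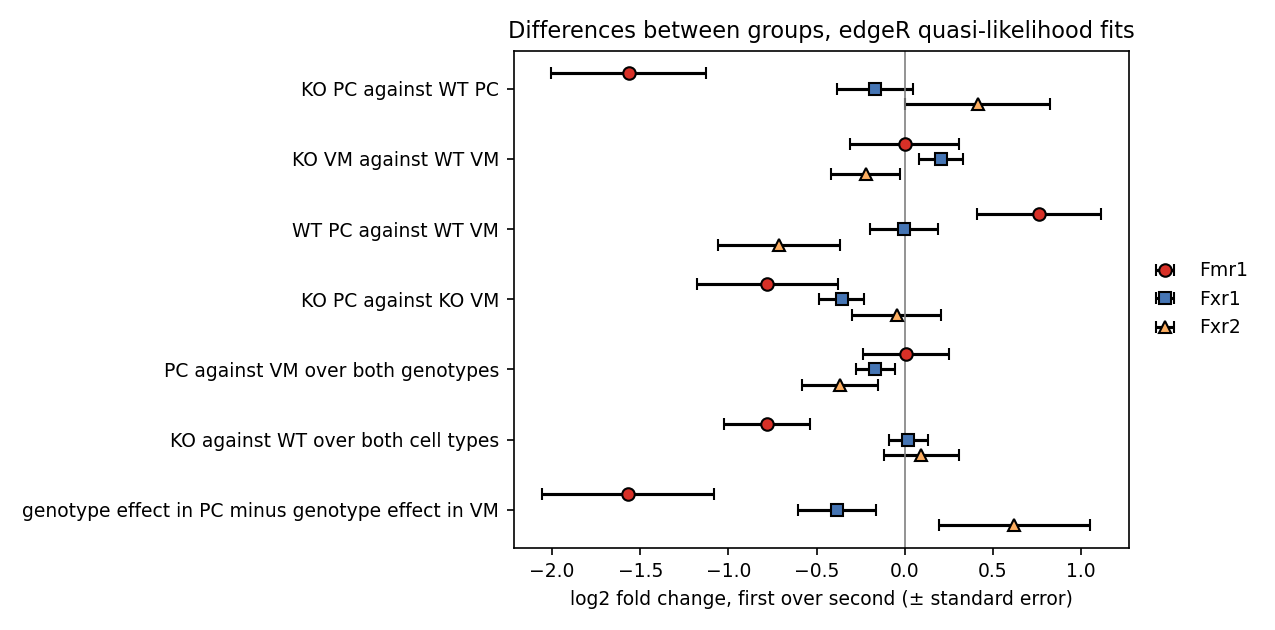
Log2 fold change with its standard error for Fmr1, Fxr1 and Fxr2 in the 7 comparisons, from edgeR quasi-likelihood fits. Fmr1 lies at -1.57 in KO PC against WT PC and at 0 in KO VM against WT VM, while the Fxr1 and Fxr2 values of those comparisons lie between -0.22 and 0.41.

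Ratios within a library do not depend on library scaling, but they reuse the Fmr1 counts on which the gene was chosen. By group mean, WT PC was highest and KO PC lowest against either paralogue, an order that this choice favoured. WT VM stood above KO VM against Fxr1 and below it against Fxr2. For every 100 counts of Fxr1, the WT PC libraries had 4.60, 4.92 and 7.12 counts of Fmr1 and the KO PC libraries 2.33, 1.79 and 2.10. The WT VM libraries had 2.82, 3.29 and 3.48, and the KO VM libraries 1.88, 2.94 and 3.45. WT PCs thus exceeded all other libraries, and KO PCs overlapped with KO VM replicate 1. Against 100 counts of Fxr2, Fmr1 stood at 60.2 to 129.2 in WT PC and 15.7 to 26.0 in KO PC, with VMs at 20.7 to 45.7. The 3 members did not vary together over the 12 libraries, which share their groups and depths. Pearson's r of the log2 normalized counts was 0.26 between Fmr1 and Fxr1, -0.35 between Fmr1 and Fxr2 and 0.04 between Fxr1 and Fxr2. Fxr2 had r = -0.60 with the mitochondrial share of the counts, against 0.15 for Fmr1 and 0.13 for Fxr1.

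Genes next to the members had few or no counts, apart from those beside Fxr1. Fmr1os, a lincRNA that ends 142 bases before Fmr1 on the opposite strand, had 0 counts in every library, and Fmr1nb, 43.88 kb after Fmr1, had at most 7. Dnajc19, which encodes a mitochondrial co-chaperone and overlaps the end of Fxr1, had 84 to 285 counts and a log2 fold change of -0.45 ± 0.34 (SE) in KO PC over WT PC (adjusted p = 0.993 by edgeR), which was -0.08 without WT PC replicate 2. Gm43668, a locus that begins 337 bases past Fxr1 on its strand, had 2 counts in WT PC replicate 2 and 24 to 122 in the other libraries. It had 3.9 to 33.5 normalized counts in WT PC and 45.7 to 81.5 in KO PC. KO PC lay wholly above WT PC for 4.82% of all genes tested. Its log2 fold change was 1.36 ± 0.65 (SE, adjusted p = 0.993 by edgeR). Without WT PC replicate 2 it was 0.94 and passed an unadjusted 0.05, as in 1 of 6 fits with a library left out. Sox15, after Fxr2, had no counts, and Sat2, before it, had 5 to 27.

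The proteins that work with FMRP were taken as 7 lists of 105 genes, and few of them differed between genotypes. In PCs 85 genes could be tested and 1 was called at an unadjusted p under 0.05 (1.18%), against 3.22% of all genes tested. That count rests on single libraries. It was 5 without WT PC replicate 1 (where 7.72% of all genes were called), 2 without WT PC replicate 2 or 3, 0 without any of the KO PC libraries, and 5 in a fit of all 12 libraries. The number of all genes called moved between these fits too, as given further below. The median log2 fold change of KO PC over WT PC was 0.09 over the lists and -0.0023 over all genes. In VMs 3 of 84 were called (3.57%), against 5.12% of all genes, with a median of -0.0002 against -0.02. None of these genes passed adjustment over all genes (0 in either cell type), as 0 genes in PCs and 0.0373% in VMs did. At an unadjusted 0.05, DESeq2 called 2 pathway genes in PCs, where it called 560 of all genes, and 3 in VMs, where it called 391. Limma called 3 in PCs, where it called 503 of all genes, and 2 in VMs, where it called 584. No pathway gene passed adjustment in these fits (0 in each).

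CYFIP proteins link FMRP to the WAVE complex, which drives branching of actin filaments. Of its 10 genes 8 were tested and 0 were called in either cell type. Cyfip1 was at 0.01 ± 0.31 (SE, log2) in KO PC over WT PC and Cyfip2 at 0.33 ± 0.33. Without WT PC replicate 2, Cyfip2 was at 0.03. Among the 23 proteins of FMRP granules and stress granules, 22 were tested. Purb, which encodes a single-stranded nucleic acid binding protein, was lower in KO PC by a log2 fold change of -0.88 ± 0.34 (SE, unadjusted p under 0.05, adjusted p of 0.993 by edgeR). Its 948 normalized counts in WT PC replicate 2 stood against 375.7 and 438.6 in the other WT PC libraries and 289.4 to 332.2 in KO PC, and without that replicate the value was -0.38 and no longer called. Purb was not called without any of the KO PC libraries either, though its value stayed near the full one (-0.90 without replicate 1 and -0.86 without replicate 3). Caprin1, a partner of FMRP and of the G3BP proteins in granules, was at 0.17 ± 0.24, and at 0.03 without WT PC replicate 2.

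None of the 12 tested genes of microRNA processing and silencing was called in either cell type (0 called). Ago2, the slicing Argonaute, was at 0.21 ± 0.33 (SE, log2) in KO PC over WT PC, and Dicer1 at 0.31 ± 0.32. Without WT PC replicate 2, Ago2 was at -0.06 and Dicer1 at 0.10. Among 19 genes of cap-dependent initiation and mTOR signalling, Mtor, the kinase itself, rose in KO VM. It had 362.1, 344.1 and 323.0 normalized counts there against 232.6, 272.0 and 247.8 in WT VM, a log2 fold change of 0.45 ± 0.15 (SE, unadjusted p under 0.05, adjusted p of 0.931 by edgeR). In that direction 1.87% of all genes were called. The call held with each of the 6 libraries left out. Eif4e, the cap-binding protein that CYFIP1 sequesters, was at -0.06 ± 0.17 in VMs and 0.14 ± 0.29 in PCs. Of the 7 tested genes that phosphorylate, dephosphorylate or turn over FMRP, 0 were called in either cell type.

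mRNAs known as FMRP targets from work on neurons were largely silent or low here, since 12 of 26 could be tested in PCs and 11 in VMs. None was called in PCs (0 of 12). In VMs Map1b, which encodes a microtubule-binding protein, was lower in KO (-0.63 ± 0.29, SE, log2), as were 3.25% of all genes. It had an adjusted p of 0.931 by edgeR and stayed under the unadjusted threshold in 2 of 6 fits with a library left out. With upper-quartile scaling, 2 genes of all the pathway lists together were called higher in KO VM and 0 lower. All genes then split 274 higher to 268 lower, against 201 to 349 with TMM. Of the mRNAs tied to FXR1 in muscle and heart, 5 of 6 were tested and 0 were called. Dsp, which encodes desmoplakin of the desmosome, was at 0.09 ± 0.24 in PCs and 0.19 ± 0.13 in VMs, and Gja1, which encodes connexin 43, was at 0.17 ± 0.23 and 0.13 ± 0.14.

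**Figure D5:**
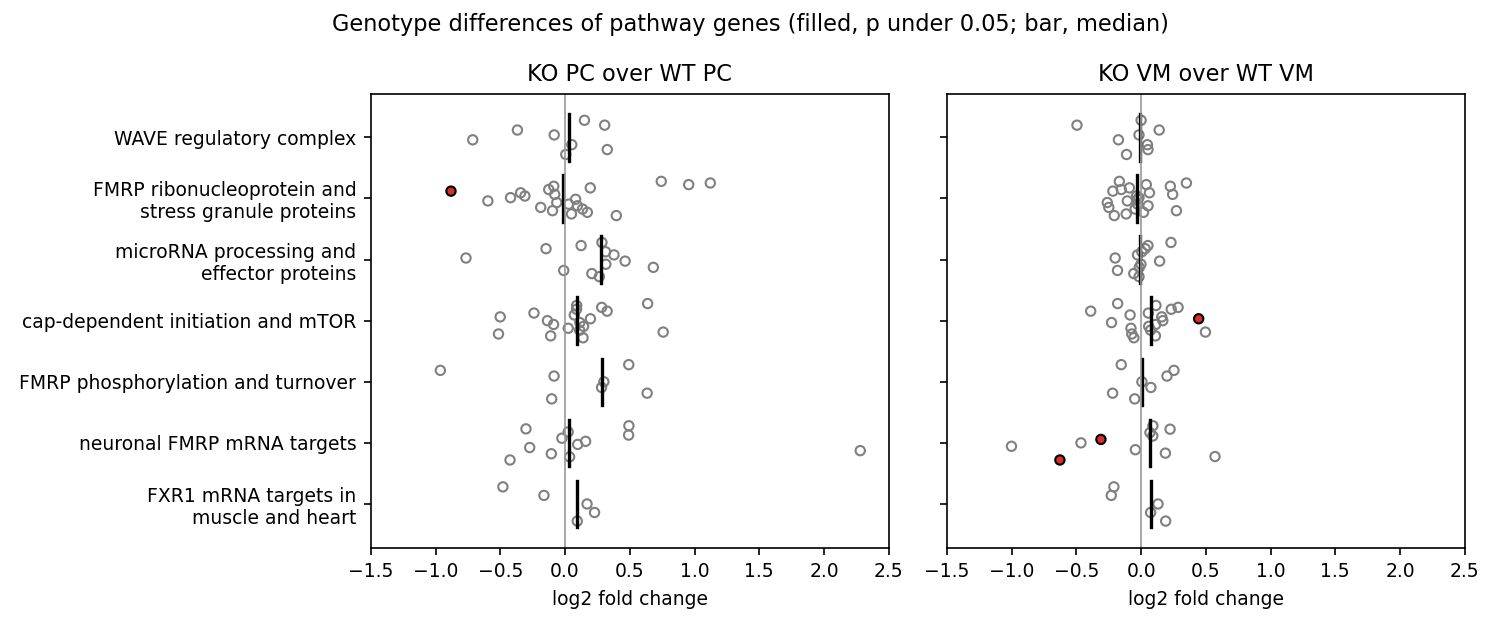
Log2 fold change of KO over WT in PCs (left) and VMs (right) for each tested gene of the 7 pathway lists, with the median of each list as a bar and genes at an unadjusted p under 0.05 filled. The single filled point in PCs is Purb at -0.88, and those in VMs include Mtor at 0.45 and Map1b at -0.63.

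Between the cell types, 11 of 84 pathway genes were called over both genotypes (13.1%), 6 higher and 5 lower in PCs, against 11.4% of all genes, 8.54% higher and 2.82% lower. Adjustment left 2 of the 84, and 1.47% of all genes. Of the 11, 5 were among the neuronal FMRP targets. App, the amyloid precursor protein, rose by 1.38 ± 0.22 (SE, log2) in PCs, with an adjusted p = 0.00496 by edgeR, and Map1b by 1.76 ± 0.34, with an adjusted p = 0.0156 by edgeR. App had 187.8 to 247.7 normalized counts in WT PC and 116.2 to 223.2 in KO PC, against 48.9 to 109.7 and 65.1 to 78.7 in WT and KO VM. Shank3, a synaptic scaffold, was higher in PCs and Kcnd2, a channel subunit of the transient outward potassium current, was lower (-0.56 ± 0.16). Cacna1c, the pore of the L-type calcium channel, was also lower (-0.30 ± 0.12), and is named after its values were seen. These 3 did not pass adjustment (adjusted p of 0.114 to 0.31 by edgeR). Markers of some other cell types were also higher in PCs than in VMs. Fibroblast markers summed to 656.9 to 1672 normalized counts over the PC libraries against 65.1 to 384.5 over the VM libraries, and leukocyte markers to 237.3 to 608.6 against 9.9 to 147.2. Endothelial markers were at 600.8 to 1958 in PCs and 107.5 to 617 in VMs. Their part in the differences between cell types was not tested.

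In the other lists, Abi1 and Wasf2 of the WAVE complex were higher in PCs (0.86 ± 0.29 and 0.83 ± 0.35, SE, log2) and Cyfip2 was lower (-0.45 ± 0.18). Csnk2b, the regulatory subunit of casein kinase 2, was higher and Csnk2a1, a catalytic subunit of the same kinase, was lower (0.58 ± 0.27 and -0.26 ± 0.12), each just under the unadjusted threshold. Without WT PC replicate 2, Csnk2b was at 0.20 and no longer called, and it passed in 3 of 12 fits with a library left out. Abi1 was at 0.53 without that replicate and still called. Wasf2 was at 0.66 without WT PC replicate 1 and not called, and passed in 5 of 12 such fits. Gja1 was lower in PCs by a log2 fold change of -0.41 ± 0.13 (adjusted p = 0.14 by edgeR). The count rests on the scaling and on WT PC replicate 1. With upper-quartile scaling 4 of the pathway genes were higher and 17 lower, where all genes split 763 higher to 797 lower against 967 to 319 with TMM, and without WT PC replicate 1 they split 7 to 18, with 16.8% of all genes called.

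Over the 12 libraries and 8099 genes with a mean normalized count above 20, the genes whose log2 normalized counts were most like those of Fmr1 were Ssbp2 (r = 0.91), Rpl23a (0.87), Cfap20 (0.84), Trappc2l (0.81) and Senp6 (0.81). Like Fmr1, they were highest in WT PC and lowest in KO PC by group mean, an order that picking them by correlation with Fmr1 favoured. Ssbp2, which encodes a single-stranded DNA binding protein, averaged 195.5 ± 10.5 normalized counts in WT PC, 147.4 ± 12.4 in WT VM, 128.6 ± 14.0 in KO VM and 110.6 ± 16.9 in KO PC (SD, n = 3 each). Rpl23a, a ribosomal protein gene, averaged 30.1 ± 3.57 in WT PC and 15.9 ± 0.52 in KO PC, and such genes have many near-identical pseudogenes, so its counts are uncertain. For Fxr1 the closest genes were Yars2, Ctnna1, Xirp2, Fam20b and Uprt (r = 0.83 to 0.86), among them Xirp2, a protein of the intercalated disc, and Ctnna1, alpha-catenin. For Fxr2 they were Ift20, Sh2d4a, Trim25, Dnpep and the noncoding Gm16793 (r = 0.92 to 0.93). These correlations across 12 libraries, picked as the highest of many, are a description.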

How the data were processed

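RNA of 12 libraries, 3 in each of 4 groups, was sequenced by the authors as 50-base read pairs after low-input amplification, aligned with STAR to mm10 and counted per gene with HTSeq. The deposited values are unscaled counts, with a file for each library. Identifiers numbered 48526, and 382 of them, with 0.00511% of counts, had no entry in GENCODE M21.

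Counts were fitted with edgeR 4.0.16 (R 4.3.3; TMM scaling, quasi-likelihood test) on genes with a mean normalized count above 5, and p-values were adjusted by the Benjamini-Hochberg method over all genes tested. The study's own threshold was an unadjusted p under 0.05, so calls at both are given. Exact permutation tests relabelled libraries (20 ways for 3 against 3, and 400 within strata). Alternatives used DESeq2 1.42.0, limma 3.58.1, other scalings and filters, thinning to the smallest library, and each library left out. Fits were tested on simulated data. Likeness used log2(normalized count + 2). Levels between genes were divided by merged exon length.

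The members and the lists were chosen with earlier results of these data known. Named genes were the members, up to 4 genes per list and comparison with the smallest p under 0.05, a fixed set of partners and targets, neighbours, and the 5 closest genes by correlation; some of them are counted but not reported here by name. Depth limits Fmr1 most, at 13 to 142 counts.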

Additional observations from a re-analysis of the deposited data

Results flagged for a closer look

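Csnk2b, which encodes the regulatory subunit of casein kinase 2, had a genotype effect in PCs that differed from that in VMs by a log2 fold change of -1.22 ± 0.54 (SE, unadjusted p under 0.05, adjusted p of 0.999 by edgeR). KO PC over WT PC was -0.96 and KO VM over WT VM was 0.25, and neither passed the test alone. The WT PC libraries had 113.8, 358.9 and 105.7 normalized counts, with the high value in replicate 2, the library in which 63.94% of read pairs were not aligned. Without that replicate the difference was -0.45 and did not pass. The cause was not tested.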

How the results depend on the processing

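Fmr1 in KO PC against WT PC lay between -1.63 and -1.41 on the log2 scale in every setting run, with -1.41 after thinning each library to the smallest. Fxr1 in WT PC against WT VM, close to 0, changed sign in several settings (0.0349 with the DESeq2 Wald test, 0.0355 with DESeq2 size factors, 0.0041 without mitochondrial genes, 0.0265 in a fit of all 12 libraries, and -0.088 to 0.105 with a library left out). Other values close to 0 also crossed it with a library left out, namely Fxr2 in KO PC against KO VM (-0.347 to 0.0796) and, for KO against WT over both cell types, Fxr1 (-0.0309 to 0.059) and Fxr2 (-0.0609 to 0.191, and -0.0224 with limma). Fxr2 in WT PC against WT VM passed an unadjusted p under 0.05 with limma (-0.53), in the fit of all libraries (-0.68) and with upper-quartile scaling (-0.75), and ran from -0.92 to -0.46 with a library left out. For PC against VM over both genotypes, Fxr1 passed with limma (-0.20), with upper-quartile scaling (-0.26) and without WT PC replicate 1 (-0.25; -0.25 to -0.11 with a library left out), and Fxr2 with upper-quartile scaling (-0.47), without KO PC replicate 3 (-0.54) and without WT PC replicate 1 (-0.50; range -0.54 to -0.24). The Fxr1 difference between genotype effects ran from -0.49 to -0.29, passing without WT PC replicate 3, and Fxr1 in KO PC against KO VM from -0.40 to -0.30. No Fxr1 or Fxr2 value had an adjusted p under 0.05 in any setting (lowest 0.189). The causes were not tested.

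Genes at an unadjusted p under 0.05 numbered 378 in KO PC against WT PC, 1126 with no filter on low counts, 963 in a fit of all 12 libraries, and 169 to 879 with a library left out, lowest without KO PC replicate 1 and highest without WT PC replicate 1. In KO VM against WT VM they numbered 550, 972 with no filter and 153 in the fit of all libraries, and with upper-quartile scaling 274 were higher and 268 lower against 201 and 349. In PC against VM they numbered 1286, and 2155 with no filter. With coding length, the mean family share was 3.22% for Fmr1, 88.8% for Fxr1 and 8.01% for Fxr2, against 2.10%, 84.7% and 13.2% by exon length. Protein length was not run.

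Replicate numbers follow the sample titles. Another label gives some WT libraries other numbers, so matches between WT and KO numbers are uncertain. Correlations of same-numbered libraries were -0.075 to 0.207. Between WT PC and WT VM all 3 libraries correlated best with their own number (r = 0.0813 to 0.207). In the other comparisons not all of them did. Whether WT PC and WT VM libraries of the same number shared a heart was not tested. With a replicate block, Fmr1 in KO PC against WT PC was -1.56, 279 genes passed there, and no call on Fxr1 or Fxr2 changed.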
